A study of Bos taurus with 6 samples.

Results

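DEFB4A and EBD are a pair of beta-defensin genes, measured here in agarose gels seeded with mesenchymal stem cells (MSCs) from bovine bone marrow. They were chosen on their measured signals, for a low level with transforming growth factor beta 3 (TGF-beta3) and a high level after compressive loading, so their differences in those contrasts are described and not tested. Every probe set that the array annotation assigns to either symbol alone was taken. This gave 3 of the 24016 probe sets that were not controls, 2 for DEFB4A and 1 for EBD, and 2 of 9155 named genes.

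There were 6 Affymetrix bovine arrays, 1 per condition, all from agarose constructs in a chemically defined medium. The conditions without TGF-beta3, labelled undifferentiated, were day 3, day 21 and day 42. The conditions with TGF-beta3, a growth factor that drives MSCs towards cartilage cells, were day 21, day 42 unloaded, and day 42 after 21 days without loading and then 21 days of dynamic compression in the same medium. The sources used here name neither the donors of the marrow nor any pooling of constructs. There were no replicates, which limits the precision throughout, and in bulk RNA fewer cells of a type and less RNA per cell cannot be told apart.

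Beta-defensins are small cationic peptides, secreted mainly by epithelia and stored by some blood cells, which permeabilise microbes and attract immune cells through receptors such as CCR6. They fold around disulphide bonds between conserved cysteines. In cattle the family is enlarged. DEFB4A encodes neutrophil beta-defensin 4, first known from granules of bovine neutrophils, and EBD encodes enteric beta-defensin, known from the gut epithelium of infected calves. Transcription of many beta-defensins is induced by microbial products and interleukin 1 through the factor NF-kB. In the bovine RefSeq annotation (ARS-UCD2.0) DEFB4A and EBD lie on the same chromosome with only 2 other annotated genes between them, and 10 genes of that chromosome have defensin symbols.

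The brighter DEFB4A probe set had a signal of 943 at day 3, 932 at day 21 and 2283 at day 42 without TGF-beta3, and of 109 at day 21, 30.7 at day 42 unloaded and 287 at day 42 loaded with it. EBD had 1641, 3780 and 5630 without TGF-beta3 on the same days, and 1059, 141 and 960 with it. For both genes the unloaded day 42 array with TGF-beta3 was the lowest of all and day 42 without TGF-beta3 was the highest. The 3 arrays with TGF-beta3 lay below the 3 without it. The share of all probe sets with this order was not counted, and every array but day 3 entered the choice of the genes. The floor under which signals are not ordered was 15.1, the 40th percentile of all values, and both probe sets were above it on all 6 arrays.

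The other DEFB4A probe set was dim and did not follow the brighter one throughout. Its signal was 33.5 at day 3 and 49.5 at day 42 without TGF-beta3, and under the floor on the remaining 4 arrays, where it was 0.875 at day 21 without TGF-beta3, 0.490 at day 21 with it, 1.28 at day 42 unloaded and 6.31 loaded. Both DEFB4A probe sets were highest at day 42 without TGF-beta3. They disagreed at day 21 without it, where the brighter one stood at 932 and the dimmer one at 0.875. The brighter one is of the type whose probes are shared by several transcripts, as Affymetrix names it, so RNA of closely related beta-defensins may add to its signal, and its values are those of DEFB4A only as far as the annotation assigns them.

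**Figure D1:**
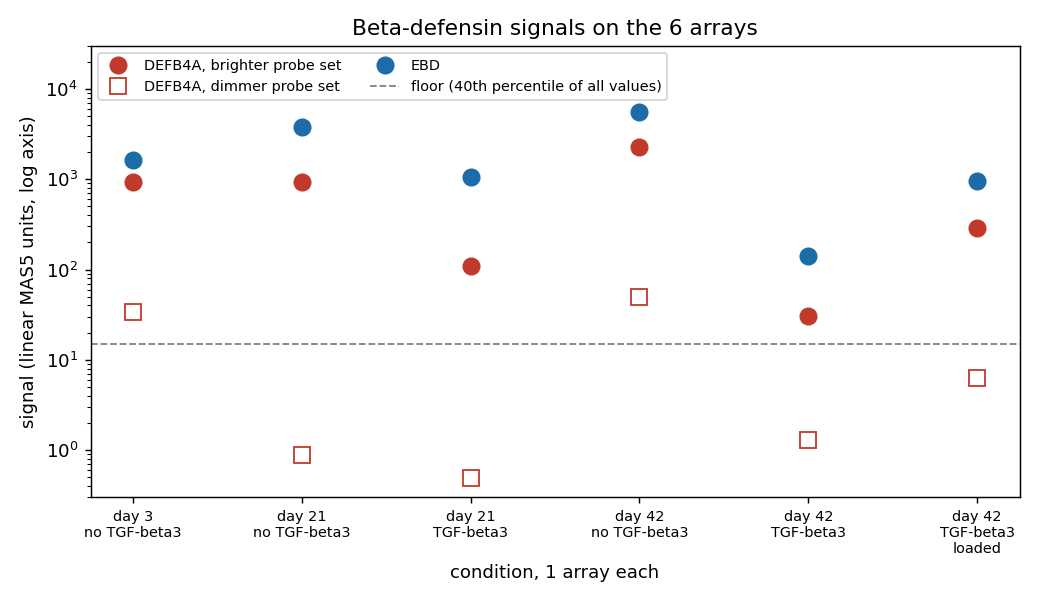
Signal of the 3 probe sets (log axis, MAS5 units) on the 6 arrays, 1 point per array, with the floor of 15.1 dashed. EBD and the brighter DEFB4A probe set are lowest on the unloaded day 42 array with TGF-beta3 (141 and 30.7) and highest at day 42 without TGF-beta3 (5630 and 2283), while the dimmer DEFB4A probe set is above the floor on 2 arrays only.

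The first question of the study concerned TGF-beta3. At day 21 DEFB4A was 8.58-fold lower with it (log2 difference -3.10) and EBD 3.57-fold lower (-1.84). At day 42 the differences were larger for both, 74.4-fold for DEFB4A (-6.22) and 39.995-fold for EBD (-5.32). The dimmer DEFB4A probe set was at least 3.27-fold lower at day 42, and both of its day 21 signals were under the floor. Of all probe sets compared, 15.7% were at least 2-fold lower with TGF-beta3 at day 21 and 16.2% at day 42. At day 21, 245 of 15466 probe sets had a difference as low as that of DEFB4A or lower, and 921 for EBD. At day 42 these were 19 and 42 of 16874. These counts describe values that chose the genes.

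The day 42 array with TGF-beta3 stood apart in its control signals. Hybridisation spikes, foreign transcripts added in fixed amounts, had a median signal of 7304 there and 5823 on the loaded array, against 2618 to 3727 on the remaining 4. Scaling the arrays to the spikes gave log2 differences of -7.54 for DEFB4A and -6.64 for EBD with TGF-beta3 at day 42, further from 0 than with the authors' scaling. The ratio of 3 prime to 5 prime signal of control transcripts, a sign of RNA and amplification quality, lay between 1.51 and 2.27 for GAPDH and between 4.86 and 7.52 for cyclophilin and between 5.08 and 9.10 for eIF4E. It was highest on the loaded array for cyclophilin, and at day 42 without TGF-beta3, where both members peaked, for GAPDH and eIF4E. The eIF4E ratio was higher on all 3 day 42 arrays than on any other array. Its part in the results was not tested.

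The second question was whether compression alters chondrogenic constructs. At day 42 DEFB4A was 9.36-fold higher in the loaded than in the unloaded construct (log2 difference 3.23) and EBD 6.82-fold higher (2.77). The dimmer DEFB4A probe set was under the floor on both arrays. Of all probe sets compared, 10.2% were at least 2-fold higher with loading, and the difference was as high as that of DEFB4A or higher in 11 of 17448 probe sets, and as that of EBD or higher in 33. The unloaded day 42 array enters both this comparison and that of TGF-beta3 at day 42, so the low signals on that 1 array contribute to both.

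**Figure D2:**
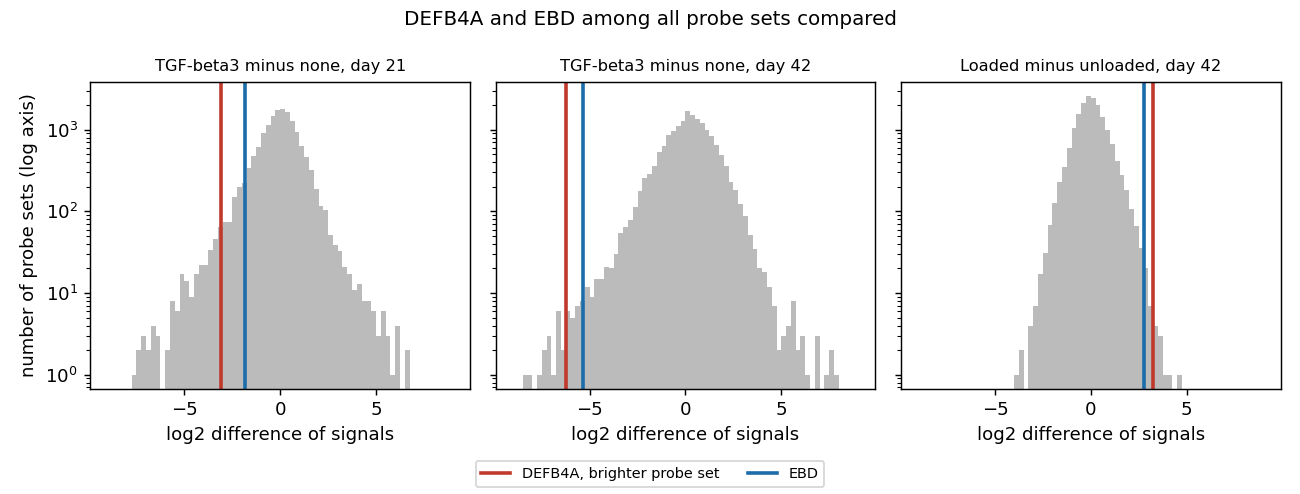
Number of probe sets (log axis) by log2 difference of signals for 3 comparisons of 1 array with 1 array, with lines at the brighter DEFB4A probe set and EBD. With TGF-beta3 both lie in the lower tail, at -3.10 and -1.84 on day 21 and at -6.22 and -5.32 on day 42, and with loading both lie in the upper tail, at 3.23 and 2.77.

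Day 21 with TGF-beta3, when loading began, gives another reference. From day 21 to day 42 without loading, DEFB4A was 3.54-fold lower (log2 -1.82) and EBD 7.52-fold lower (-2.91) with TGF-beta3, where 14.1% of all probe sets were at least 2-fold lower. With the floor raised to the 60th percentile that of DEFB4A was -0.97, as its unloaded signal then fell under the floor. The loaded construct set against day 21, a comparison without the unloaded day 42 array, was 2.64-fold higher in DEFB4A (log2 1.40) and 1.10-fold lower in EBD (-0.14). The genes thus stood differently to that starting point with the authors' scaling. EBD in the loaded construct was close to its day 21 signal, 960 against 1059, while DEFB4A was above its own, 287 against 109. This comparison was not repeated under other scalings. The spike median was 5823 on the loaded array and 3212 at day 21 with TGF-beta3, so scaling to the spikes would lower both genes in the loaded construct against day 21. Neither gene reached the level of day 42 without TGF-beta3, where DEFB4A was 7.95-fold and EBD 5.87-fold above the loaded construct.

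The courses without TGF-beta3 are given as a description, since the day 21 and day 42 arrays also enter the comparisons that chose the genes and only day 3 lies outside them. Between day 3 and day 21 EBD was 2.30-fold higher (log2 1.20), while DEFB4A was at nearly the same signal (-0.02) and its dimmer probe set at least 2.21-fold lower. Of all probe sets 7.18% were at least 2-fold higher over these days. Between day 21 and day 42 DEFB4A was 2.45-fold higher (1.29), its dimmer probe set at least 3.27-fold higher and EBD 1.49-fold higher (0.57), where 3.29% of all probe sets were at least 2-fold higher. With 1 array per day these differences have no test.

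The combination was uncommon on these arrays. Of 14346 probe sets compared at day 21 and for loading, comparisons that share no array, 305 (2.13%) were at least 2-fold lower with TGF-beta3 at day 21 and at least 2-fold higher with loading, the brighter DEFB4A probe set and EBD among them. That pattern is the reason the genes were picked.

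Of the 30 names in the list of beta-defensins and related peptides, 4 besides the members had a probe set named here. DEFB10, another neutrophil beta-defensin, had signals of 79.0, 17.8 and 28.2 at days 3, 21 and 42 without TGF-beta3, was under the floor at both days with it, and stood at 53.8 in the loaded construct, at least 3.55-fold above the unloaded one. With TGF-beta3 its bound was 1.18-fold lower on the earlier day and 1.86-fold on the later. No test is given for it, since it was under the floor on both of those arrays with TGF-beta3. TAP, tracheal antimicrobial peptide, was above the floor only in the loaded construct (25.9), and LAP, lingual antimicrobial peptide, only at day 42 without TGF-beta3 (20.3). DEFB13 was under the floor on all 6 arrays.

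Other genes of innate defence were tested for TGF-beta3 over days 21 and 42, with 2 arrays a side, by limma with a term for day and Benjamini-Hochberg adjustment over 14839 probe sets. At an adjusted p under 0.05, 7.11% of the 6835 genes tested rose and 7.7% fell. The 2 days stand in for replicates. With the day term, the residual spread is how far the TGF-beta3 difference changed between the days. The p-values rest mainly on that spread pooled over probe sets, and the spread between independent cultures is not known. Of these genes 433 were under the floor on both arrays of 1 arm. They entered only through the arm where they were high, so their direction was fixed by the filter, and for such genes bounds are given with no test. Of the other 6402 genes, counted apart after the data were seen, 6.42% rose and 7% fell. The calls depended on how the probe sets were filtered. With any 1 of the 4 arrays left out, no day term and the filter of the 4 arrays kept, as planned, no probe set passed, and so every call named below was lost in all 4 fits. The lowest adjusted p was between 0.0704 and 0.439 by limma, and 1556 to 4561 probe sets had an unadjusted p under 0.05. Applying the filter again to the 3 arrays left, a choice made after seeing those 0 calls, gave between 340 and 3773 probe sets. The fits with 1 array left out that are quoted for single genes below are of this second kind.

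Of 9 other antimicrobial genes tested, 8 were above the floor in both arms, of which 2 rose, 2 fell and 4 did not pass. S100A12, a calcium-binding protein of neutrophils and macrophages that sequesters metals, was at 4659 without and 51.9 with TGF-beta3 at day 21 and at 7152 and 23.4 at day 42, and fell (mean log2 difference -7.37 ± 0.38, SE, adjusted p = 8.71e-21 by limma). S100A8, a subunit of calprotectin, fell by -4.10 ± 0.34 (adjusted p = 1.06e-13 by limma). S100A9, its other subunit, did not pass (-0.45 ± 0.47, adjusted p = 0.594 by limma). The second S100A9 probe set read 108 without and 84.7 with TGF-beta3 at day 21, and 167 and 280 at day 42. RNASE6, an antimicrobial ribonuclease, was at 51.8 and 52.2 at days 21 and 42 without TGF-beta3 and under the floor with it, lower by 3.42-fold or more at day 21 and by 3.45-fold or more at day 42. CHI3L1, a chitinase-like secreted protein abundant in stressed cartilage, rose by 2.76 ± 0.37, and SLPI, an epithelial protease inhibitor with antimicrobial activity, by 2.501 ± 0.71 (adjusted p = 1.11e-07 and 0.0105 by limma). The S100A12, S100A8 and CHI3L1 calls held under the 9 alternatives other than the 4 planned fits with 1 array left out. That of SLPI was lost under 4 of 9, among them the fits without either array lacking TGF-beta3 (adjusted p = 0.468 and 0.359 by limma), without the day term (0.0771) and with a higher floor (0.0905). The median log2 difference over the 8 genes was 0.14, against 0.12 over all 6402.

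Of 28 genes of the NF-kB, Toll-like receptor and interleukin 1 pathways tested, 26 were above the floor in both arms, of which 1 rose and 3 fell, with a median log2 difference of -0.53. NFKBIZ, a nuclear protein that steers NF-kB to a subset of its targets, was at 1123 without and 214 with TGF-beta3 at day 21 and at 1065 and 117 at day 42, and fell by -2.79 ± 0.37 (adjusted p = 1.03e-07 by limma). Its second probe set read 351 without and 140 with TGF-beta3 at day 21, and 214 against 150 at day 42, a smaller difference in the same direction. LBP, which delivers bacterial lipopolysaccharide to its receptor, fell by -3.70 ± 0.67 (adjusted p = 4.15e-05 by limma), with its day 21 signal with TGF-beta3 (8.36) set to the floor. TLR2, a receptor for bacterial lipopeptides, fell by -2.36 ± 0.66 (adjusted p = 0.0094 by limma), and the interleukin 1 receptor IL1R1 rose by 1.66 ± 0.58 (adjusted p = 0.0467 by limma). The NFKBIZ call held under the 9 alternatives other than those 4 fits. In the fits without the day 21 or without the day 42 array lacking TGF-beta3 the calls of LBP (adjusted p = 0.0565 and 0.121 by limma), TLR2 (0.319 and 0.605) and IL1R1 (0.276 and 0.715) were lost, and 1 gene of the list fell in each. TLR2 was also lost without the day term (0.07), and IL1R1 without it (0.154), without the variance trend (0.0985) and without the day 42 array with TGF-beta3 (0.133), by limma. In the fit without the day 21 array with TGF-beta3 more genes fell, both in this list and over all genes.

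Receptors and chemokines linked to beta-defensins were also listed. Of 4 tested, 2 were above the floor in both arms. CCL20, the chemokine that shares the receptor CCR6 with beta-defensins, had signals of 333, 78.4 and 130 at days 3, 21 and 42 without TGF-beta3. It was under the floor at both days with it, lower by 5.18-fold or more at day 21 and by 8.58-fold or more at day 42. EGFR, a receptor for epidermal growth factor, was at 174 and 164 at days 21 and 42 without TGF-beta3 and under the floor with it, lower by 11.5-fold or more at day 21 and by 10.8-fold or more at day 42. The monocyte chemokine CCL2 rose by 4.18 ± 0.38 (adjusted p = 2.36e-12 by limma). As references for the action of TGF-beta3, its target TGFBI rose by 4.15 ± 0.37, COL2A1 by 2.32 ± 0.41 and ACAN by 2.29 ± 0.34, but COL2A1 did not pass without either array lacking TGF-beta3 (adjusted p = 0.281 and 0.217 by limma) and ACAN not without that of day 42 (0.056).

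**Figure D3:**
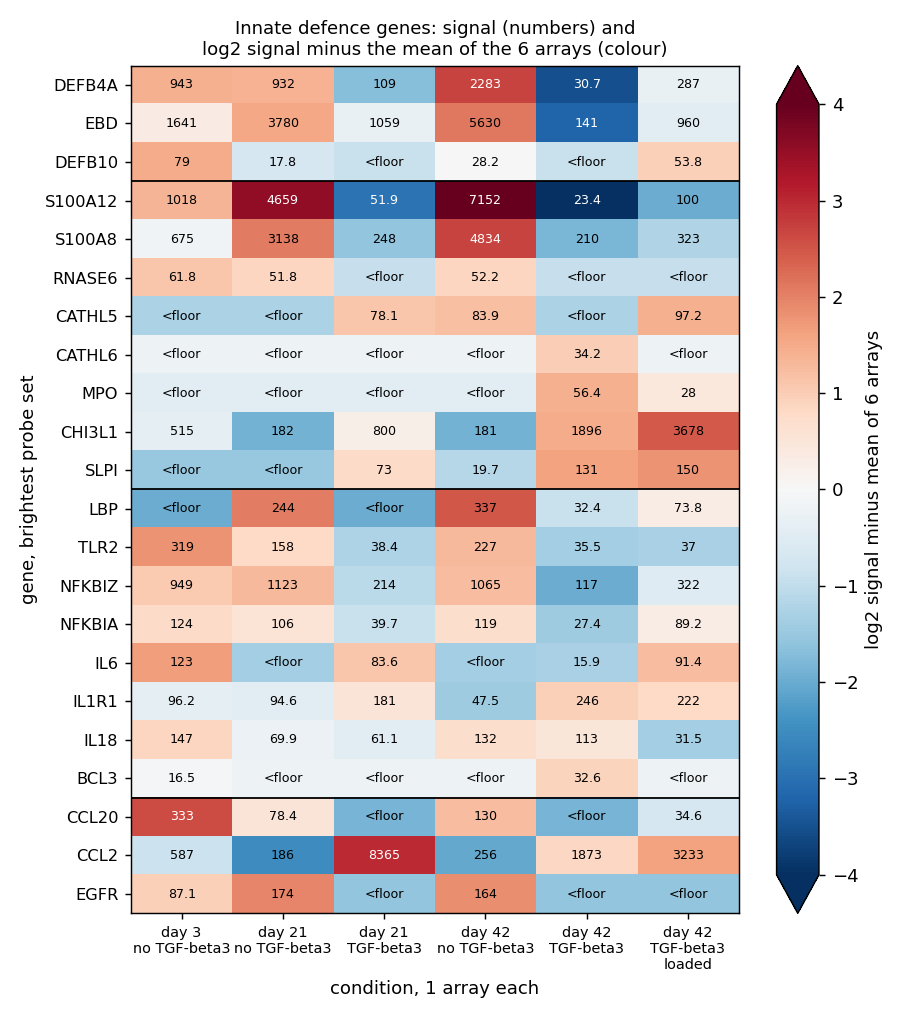
Signal of 22 genes on the 6 arrays, with the number in each cell giving the signal ("<floor" for values under 15.1) and the colour the log2 signal minus the gene's mean over the arrays. The genes are part of those named in the text for these lists, some chosen after their values were seen. Left out are TAP, LAP, DEFB13, S100A9, TLR3, TLR9, NFKBIB, NFKB1, IL1RN and NFKB2. Rows run from the beta-defensins to other antimicrobial genes, NF-kB pathway genes and chemokines and receptors. DEFB4A, EBD, S100A12, NFKBIZ and NFKBIA are low on the unloaded day 42 array with TGF-beta3 and higher on the loaded one, whereas TLR2 is at 35.5 and 37.0 there.

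Loading was compared by size alone, with 1 array a side. Of the 7703 genes compared, 8.41% were at least 2-fold higher and 7.41% at least 2-fold lower in the loaded construct. In the NF-kB list 9 of 34 were higher and 3 lower, with a median log2 difference of 0.30 against -0.04 over all genes. IL6, an inflammatory cytokine, stood at 15.9 unloaded and 91.4 loaded, 5.76-fold higher, and NFKBIA, the inhibitor of NF-kB that NF-kB itself induces, at 27.4 and 89.2, 3.26-fold higher. NFKBIZ was 2.75-fold and LBP 2.28-fold higher, and the rest were TLR3, NFKBIB, TLR9, NFKB1 and IL1RN. The second NFKBIZ probe set read 150 unloaded and 243 loaded, a smaller difference. That of NFKBIB went the other way, from 22.0 to under the floor (2.57). A further TLR3 probe set went the same way as the brightest, from under the floor (9.76) to 23.1. The dimmest TLR3 probe set was under the floor on both arrays. The lowest were IL18, an interleukin 1 family cytokine, at 113 and 31.5 (3.59-fold lower), and BCL3, a nuclear partner of NF-kB, at least 2.15-fold lower, followed by NFKB2, 2.03-fold lower. Under a floor at the 60th percentile the count of 9 became 1 of 23, and that of all genes 254 of 5714. IL6 then had a log2 difference of 0.72 and NFKBIA of 0.68. BCL3 was under 2-fold with quantile normalization, median centring and spike scaling (log2 -0.90, -0.91 and -0.30). TLR2, which fell with TGF-beta3, was 1.04-fold higher with loading.

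Among other antimicrobial genes 2 of 14 were at least 2-fold higher with loading and 2 lower. The cathelicidin CATHL5 was at least 6.42-fold higher and S100A12 4.29-fold higher, from 23.4 to 100.3. The cathelicidin CATHL6 was at least 2.26-fold lower and the neutrophil peroxidase MPO 2.02-fold lower. The other MPO probe set went the opposite way, from under the floor (7.93) unloaded to 22.0 loaded. With the floor at the 60th percentile none of 8 was past 2-fold in either direction. CATHL6 was also under 2-fold with quantile normalization, median centring and spike scaling (log2 -0.98, -0.98 and -0.37), and MPO with spike scaling (-0.68). S100A8 was 1.54-fold higher. CCL20 was at least 2.28-fold higher, the only one of 5 in its list past 2-fold, and its bound was under 2-fold with quantile normalization, median centring or spike scaling (log2 0.92, 0.93 and 0.71).

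The genes most like each member were sought by Pearson's r of log2 signals over the 6 arrays, among 1993 other genes that varied by at least 2 log2 units. For DEFB4A they were FAHD1 (r = 0.99), MDN1 (0.98), MEOX2 (0.97), STX17 (0.97) and NFKBIZ (0.97). For EBD they were BLCAP (0.996), LEO1 (0.99), RELL1 (0.98), RHOT1 (0.98) and IBA57 (0.98). The members themselves had r = 0.94 with each other. EBD was in place 39 among the genes like DEFB4A, and DEFB4A in place 28 among those like EBD, so many genes ran closer to each member than they did to each other. The 6 points share the split by TGF-beta3 and the array scaling.

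Markers of the cells known to make beta-defensins were set beside these values. Of 20 neutrophil and macrophage markers 15 were named on the array and 12 could be tested for TGF-beta3. Of the 7 above the floor in both arms 3 fell (S100A12, SLC11A1 and S100A8) and none rose by limma. CD53, AIF1 and CD68 were under the floor with TGF-beta3 on both days, at least 7.46-fold, 8.09-fold and 3.72-fold lower at day 21 and at least 15.3-fold, 9.78-fold and 5.26-fold lower at day 42. The summed signal of the 12 named markers other than the S100 genes was 561 at day 3, 3202 at day 21 and 4380 at day 42 without TGF-beta3, and 102, 256 and 148 at day 21, day 42 unloaded and day 42 loaded with it. SLC11A1, a metal transporter of phagocytes, made up most of it without TGF-beta3 at days 21 and 42 (2695 and 3753). The sum of the other 11 was 298, 507 and 627 without TGF-beta3, and 74.1, 172 and 125 with it. Of the 12 markers, 7, 8 and 8 were above the floor without TGF-beta3, and 3, 6 and 4 with it. Of all probe sets that were not controls, 54.9% to 65.3% were above it on each array. The sums include signals under the floor, and so their order among the arrays with TGF-beta3 rests partly on these. Both sums were thus low with TGF-beta3, as the beta-defensins were, and lower in the loaded than in the unloaded construct. With the S100 genes included, the sum of the 15 named markers was 763 unloaded and 820 loaded. The order of the unloaded and loaded sums thus depended on leaving the S100 genes out. Of 10 markers compared for loading, 1 was at least 2-fold higher (S100A12) and 1 lower (SLC11A1). SLC11A1 was at 83.7 unloaded and 23.9 loaded, and CD53 and AIF1 were under the floor on both arrays. The pan-leukocyte marker PTPRC was at 16.0, 63.6 and 48.2 without TGF-beta3, and at 20.1 unloaded and under the floor at day 21 and in the loaded construct with it. The part of such cells in the low level with TGF-beta3 was not tested.

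Epithelial markers were dim throughout. Of 21 listed 18 were named, and between 2 and 9 of them were above the floor on any array, 9 in the loaded construct and 5 in the unloaded one. Of all probe sets that were not controls, 54.9% to 65.3% were above it. The summed signal of the epithelial markers was between 91.2 and 171 on the arrays other than those of day 42 with TGF-beta3. On those it was 295 unloaded and 290.5 loaded. The adhesion protein EPCAM was above the floor only at day 42 without TGF-beta3 (39.3) and the keratin KRT8 on no array. With loading the keratins KRT14 (at least 2.41-fold) and KRT18 (at least 2.10-fold) were higher, and KRT17 (log2 -2.0001) and the plakophilin PKP1 (at least 2.36-fold) lower, all with signals under 77. KRT18 was under 2-fold with quantile normalization, median centring and spike scaling (log2 0.78, 0.80 and 0.59), KRT14 and PKP1 with spike scaling (0.79 and -0.43), and KRT17 with the 60th percentile floor (-0.46). No lymphocyte marker of 8 was above the floor except 1 on the unloaded day 42 array, and none could be tested for TGF-beta3.

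**Figure D4:**
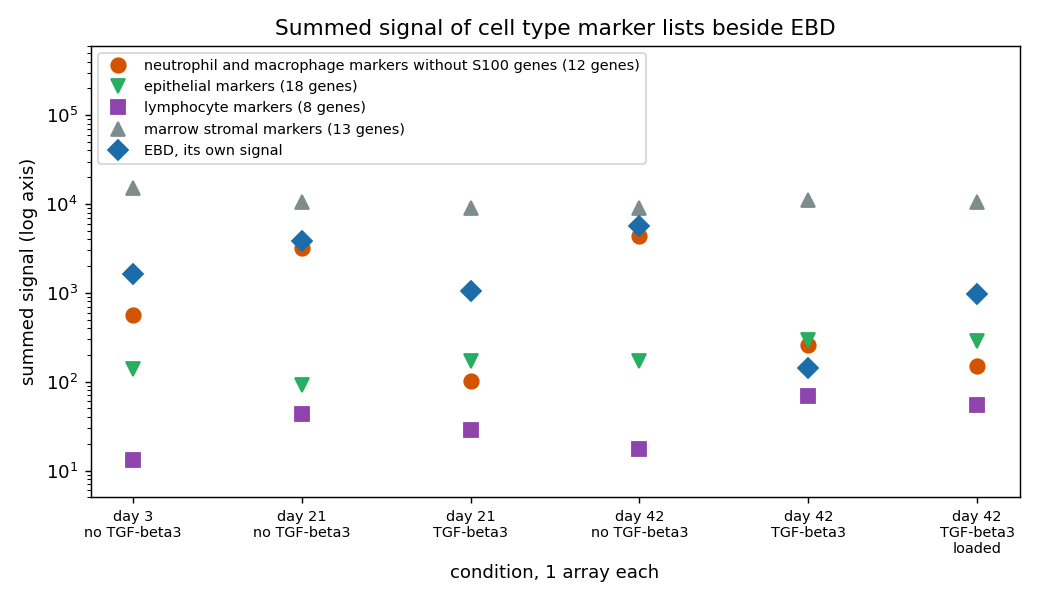
Summed signal (log axis) of 4 marker lists and the signal of EBD on each of the 6 arrays. The neutrophil and macrophage sum without the S100 genes is high without TGF-beta3 at days 21 and 42 (3202 and 4380), as EBD is. Between the unloaded and the loaded array it goes from 256 to 148 while EBD goes from 141 to 960. With the S100 genes, a sum not plotted, it goes from 763 to 820. Levels of different lists are not comparable.

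Markers of the labelled cell type were present. Of 13 marrow stromal markers between 10 and 11 were above the floor on each array, and the leptin receptor LEPR was under it on all 6. Of all probe sets that were not controls, 54.9% to 65.3% were above it, counted without taking the brightest per gene. Of 12 tested 9 were above the floor in both arms, of which NT5E rose and CD44 fell by limma. NT5E did not pass without the day term (adjusted p = 0.0936 by limma) or the variance trend (0.136), and without either array lacking TGF-beta3 no gene of the list, NT5E (0.0532 and 0.586) and CD44 included, was called. The chemokine CXCL12 was at 317 and 255 at days 21 and 42 without TGF-beta3 and under the floor with it, lower by 20.9-fold or more at day 21 and by 16.9-fold or more at day 42, and the adhesion molecule VCAM1 was lower by 10.5-fold or more at day 21 and by 3.10-fold or more at day 42. NES was higher by 3.12-fold or more at day 21 and by 6.17-fold or more at day 42. CXCL12 was at least 6.84-fold higher with loading, at 4.15 and 104, but its log2 difference was 0.90 with the 60th percentile floor. NES was at least 2-fold lower with loading, at 93.5 unloaded and 41.1 loaded, but not with spike scaling or the 60th percentile floor. The second NES probe set went the other way, from 24.9 to 82.6. All 7 cartilage matrix genes above the floor in both arms rose by limma, COMP among them, and CHAD was higher by 106-fold or more at day 21 and by 120-fold or more at day 42. Fewer cartilage genes passed in the fits without the day 21 or the day 42 array lacking TGF-beta3. CHAD entered those fits only through the arrays with TGF-beta3, so its direction there was fixed by the filter. With loading COL9A1 was 2.25-fold higher and MATN1 at least 4.10-fold lower, the latter at log2 -0.16 with the 60th percentile floor. Of 6 adipocyte genes above the floor in both arms 4 fell, CD36 among them, and CIDEC was lower by 55.9-fold or more at day 21 and by 54.8-fold or more at day 42. CEBPA was at least 2.03-fold higher with loading, but under 2-fold with quantile normalization, median centring and spike scaling (log2 0.72, 0.76 and 0.54).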

How the data were processed

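Total RNA of the 6 samples was extracted with TRIZOL, amplified by the ribo-SPIA method and hybridised, per the labels' protocols. The authors deposited 1 intensity for each probe set, on a linear scale. The submitters' processing notes name MAS5, whose version the sources do not give. The deposited intensity had a mean of 150 on every array after trimming 2% at each end. No step was taken to rescale them.

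The 112 control probe sets were left out of the comparisons. Names came from the platform annotation, whose Entrez identifiers for both members matched RefSeq. Of the probe sets 13292 had 1 symbol, 86 several and 10638 none here. A gene outside the members is given by its brightest probe set. Signals under the floor were set to it before taking log2, and a difference with 1 side under it is a bound ("at least"). A comparison needed 1 of its 2 arrays over the floor. The limma fit (limma 3.58.1, R 4.3.3, variance trend, 1 residual degree of freedom, prior worth 49.8) took 4 arrays and the probe sets over the floor on 2 or more, and was tested on simulated data. It was used for the lists, not for DEFB4A and EBD, and no test is given for a gene under the floor on both arrays of 1 arm.

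The members and the 10 gene lists were chosen with earlier results of these data known. Named were the members, the other beta-defensins, the 2 highest and 2 lowest past the threshold in each list, the 5 genes most like each member, and TGFBI, COL2A1 and ACAN. The remaining genes of short counts (RNASE6, TLR2, CD53, AIF1, CD68 and those listed for loading), S100A9 with TGF-beta3, S100A8 with loading, and the markers named singly were chosen after their values were seen. Alternatives were quantile normalization, median centring, spike scaling, a lower floor (25th percentile), a higher one (60th), adding the floor to every signal, folds of 1.5 and 3, no variance trend, no day term, each array left out without the day term, with the filter kept as planned and, added after those fits had made no call, with it applied again, and the loaded in place of the unloaded array. Other steps ran in Python 3.11.15 with pandas 2.3.3, numpy 2.4.6 and, for figures, matplotlib 3.10.9.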

Additional observations from a re-analysis of the deposited data

Results flagged for a closer look

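The cathelicidin CATHL5 went opposite ways with TGF-beta3 on the 2 days. Its log2 difference was at least 2.37 at day 21, from a signal under the floor (8.30) to 78.1, and -2.47 (a bound) at day 42, from 83.9 to under the floor (7.54). The difference between the days was not tested.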

How the results depend on the processing

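Of 87 values of the members under the alternatives, 75 stayed within 1.5 times of the reported value and on its side of 2-fold, 12 moved and none changed sign. For TGF-beta3 at day 42, DEFB4A moved to -6.80 with median centring, -7.54 with spike scaling and -5.36 with the 60th percentile floor, and EBD to -5.91 with median centring and -6.64 with spike scaling. With loading DEFB4A moved to 2.37 with the 60th percentile floor. From day 21 to day 42 with TGF-beta3, DEFB4A moved to -3.01 and EBD to -4.10 with spike scaling, and DEFB4A to -0.97 with the 60th percentile floor. The dimmer DEFB4A probe set, whose values are bounds, moved with the 25th percentile floor to -3.20 for TGF-beta3 at day 42, -2.64 from day 3 to day 21 and 3.20 from day 21 to day 42. Spike scaling moved the median of all probe sets from 0.21 to -0.999 for TGF-beta3 at day 42 and from 0.00 to 0.29 for loading.

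For TGF-beta3 over both days, 486 genes rose and 526 fell. These were 411 and 448 of the genes above the floor in both arms, an alternative added after the data were seen, and 222 and 293 without the variance trend and 120 and 183 without the day term. With 1 array left out, no day term and the filter of the 4 arrays kept, as planned, 0 genes rose and 0 fell in each of the 4 limma fits, in all genes and in both lists below. Unadjusted p-values under 0.05 numbered 1556, 4561, 1564 and 3322 probe sets without the day 21 array lacking TGF-beta3, the day 21 array with it, the day 42 array lacking it and the day 42 array with it. The prior degrees of freedom were then between 1.02 and 1.3, against 49.8 with 4 arrays. Applying the filter again to the 3 arrays left was chosen after these 0 calls had been seen and is no independent check. It gave 94 (without the day 21 array lacking TGF-beta3) to 1009 (without the day 21 array with it) genes that rose and 96 to 924 that fell. All such fits have 1 array in an arm, assumed to vary like the others. Of the antimicrobial list 1 rose without the day term and with the higher floor, and with the filter applied again 1 to 2 rose and 2 to 3 fell. Of the NF-kB list 0 rose without the trend or the day term and 3 when the loaded array replaced the unloaded one, and with the filter applied again 0 to 3 rose and 1 to 7 fell.

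For loading, 648 genes were higher and 571 lower at 2-fold, 1426 and 1452 at 1.5-fold, 217 and 139 at 3-fold, 997 and 190 with spike scaling, and 254 and 225 with the 60th percentile floor. Of the antimicrobial list 6 were higher at 1.5-fold and 0 with the 60th percentile floor. Its lower count was 0 at 3-fold, with spike scaling and with that floor, and 1 with quantile normalization or median centring. Of the NF-kB list 3 were higher at 3-fold and 1 with that floor, and 5 were lower at 1.5-fold and 1 at 3-fold, with spike scaling or with that floor. Of 320 counts of the remaining lists 230 stayed within 1.5 times and 90 moved. The cause was not tested where a scaling moved a value. The labels give no replicate numbers. The day term pairs the arrays by day, and the fit without it is the unpaired one.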
